A study of Rattus norvegicus with 35 samples.

Results

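The 6 genes Oxtr, Myh11, Acta2, Cnn1, Mylk and Tagln belong to the contractile machinery of myoepithelial cells, and Oxtr encodes the oxytocin receptor that sets it in motion. All probe sets that the platform annotation assigns to these symbols were taken, which gave 6 probe sets with the symbol alone, 1 for each gene, and 3 probe sets shared by Acta2 and the cardiac actin gene Actc1, of 15866 probe sets in all. These are 6 of the 10411 genes that the arrays read. Gene expression was measured in 24 rat mammary tumours and 11 normal rat mammary glands, each on 1 array. The labels say that the tumours were induced by NMU (N-methyl-N-nitrosourea), a carcinogen that alkylates DNA, and that the tumours were frozen. They do not say whether the animals that gave the normal glands received NMU, nor do they name strain, age, animal, pairing or batch. Of the normal glands, 8 are titled NewN, and the others are titled X27.1N, X28.1N and Young. Among the tumours, X25L and X25R share a title number, as do X29.1 and X29.2. Whether each array stands for a different animal is not stated, so a p-value here speaks of differences among arrays, some of which may be technical.

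Myoepithelial cells form the outer, basal layer of mammary ducts and alveoli and squeeze milk towards the nipple. Oxytocin released at suckling binds its receptor on these cells, the receptor acts through Gq proteins to raise calcium, and calcium with calmodulin switches on myosin light chain kinase, the product of Mylk. The kinase phosphorylates the light chain of smooth muscle myosin, whose heavy chain is Myh11, and the myosin pulls on filaments that contain the actin Acta2 and are bound by calponin (Cnn1) and transgelin (Tagln). Smooth muscle cells and pericytes of blood vessels make most of these proteins too.

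The arrays had similar overall brightness, with a median signal of 158 to 176 in tumours and 163 to 172 in normal glands. The 10th percentile lay between 39.1 and 48.3 in tumours, against 33.4 to 42.3 in normal glands, and the 90th percentile between 491 and 678 in tumours, against 639 to 763 in normal glands. In the Gapdh control probe sets, the 3' signal divided by the 5' signal, a measure of RNA degradation, was 0.884 to 1.23 in tumours and 0.963 to 1.39 in normal glands. In the beta-actin control probe sets it was 1.09 to 1.65 in tumours, highest in X29.2, and 1.14 to 1.48 in normal glands. Signals under 41.6, the 10th percentile of all values, were set to that floor before log2 was taken. One tumour, X22L, stood apart, with a summed signal of 1368 over the 16 luminal epithelial markers measured, against 5727 to 15334 in the normal glands. Precision is limited by how many arrays there are, and levels are not compared between genes, since each probe set has its own brightness.

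Of the 6 genes, 5 fell in tumours at a Benjamini-Hochberg adjusted p under 0.05 in limma and 1, Cnn1, did not pass, while 25.2% of all probe sets tested were called lower. None of the 6 rose, against 33% of all probe sets called higher and 58.2% called in either direction. In 1 of the 6, Oxtr, every tumour lay below every normal gland, which held for 2.04% of all probe sets. The median log2 change of the 6 genes, tumour minus normal, was -1.03, beside 0.04 for all probe sets, and -0.77 after quantile normalization. The sizes differed: Oxtr and Myh11 fell by several fold, while Mylk, Tagln and Acta2 fell by about 2-fold or less. Called changes of at least 2-fold downwards were found for 3 of the 6, Oxtr, Myh11 and Tagln, and for 5.08% of all probe sets. In bulk tissue, fewer cells of a type and less RNA per cell cannot be told apart.

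**Figure D1:**
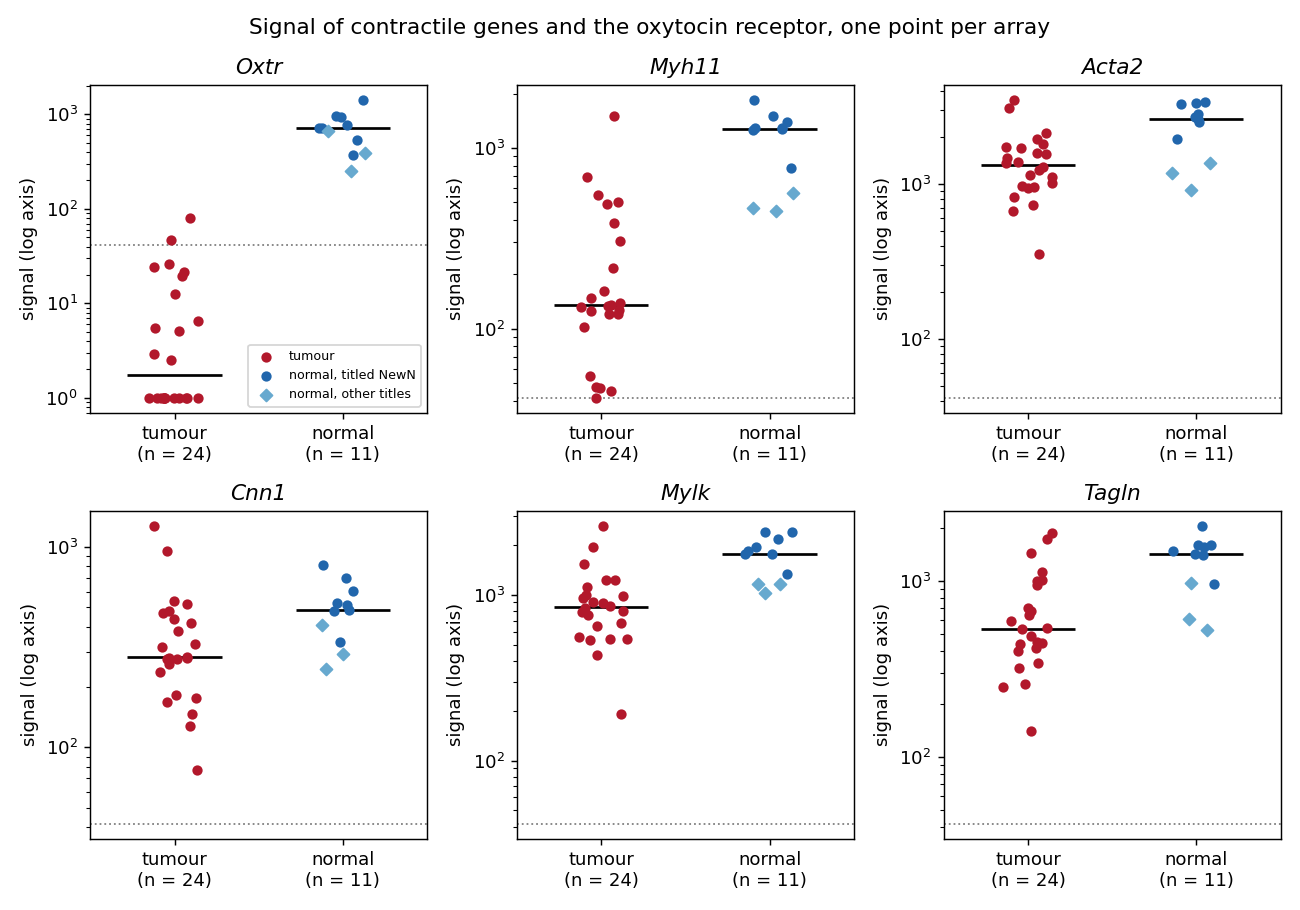
Deposited signal on a log axis of the 6 genes, 1 panel a gene and 1 point an array, with the 24 tumours left of the 11 normal glands. The black line is the group median, the dotted line the floor of 41.6, and lighter diamonds are the glands X27.1N, X28.1N and Young. Oxtr has no overlap between the groups, while Acta2 and Cnn1 overlap widely.

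Oxtr was near the lower limit of the arrays in tumours. In tumours its signal had a lowest value of 1, a median of 1.76 and a highest value of 80.3, against 249, 714 and 1426 in normal glands. The groups did not overlap, and 22 of 24 tumours were under the floor, while 0 of 11 normal glands were. The tumours above the floor were X6, with a signal of 80.3, and X19, with 46.7. Oxtr fell by 3.89 on the log2 scale in tumours (SE 0.15, adjusted p = 5.1e-22 in limma), and 42 of the 15866 probe sets had a lower change. Since most tumours were at the floor, the size depends on it: with no floor beyond the deposited lowest value of 1, the change was -7.48 (SE 0.65). Among the normal glands Oxtr also varied, with the lowest signals in X27.1N (249), NewN6 (372) and X28.1N (394) and the highest in NewN1 (1426). The Oxtr gene lies on chromosome 4 at 147154374-147171723 in the GRCr8 assembly.

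Myh11, the heavy chain of smooth muscle myosin, was the other gene that fell by several fold. Tumours had a lowest signal of 41.4, a median of 135 and a highest of 1511, against 445, 1278 and 1847 in normal glands. Of the tumours, 19 lay below every normal gland and 5 inside the normal range, and 1 was under the floor. Myh11 fell by 2.60 on the log2 scale (SE 0.42, adjusted p = 3.38e-06 in limma). The tumour values spread over a log2 SD of 1.37 (n = 24), against 0.73 in normal glands (SD, n = 11), and X17 with 1511 stood above the next tumour, X9, with 690. Myh11 lies on chromosome 10 at 1250554-1345681 (GRCr8).

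Acta2, the smooth muscle actin that serves as a common myoepithelial marker, changed less. Its signal had a lowest value of 353, a median of 1326 and a highest value of 3484 in tumours, against 917, 2602 and 3377 in normal glands. Only 4 tumours lay below every normal gland, 19 were inside the normal range, and X14 with 3484 was above every normal gland. Acta2 fell by 0.76 on the log2 scale (SE 0.24, adjusted p = 0.00739 in limma). After quantile normalization between arrays the change was -0.50 (SE 0.23) and no longer passed (adjusted p = 0.0677). The call also depended on which normal glands were used, since with X27.1N and X28.1N as the only normal glands the change was 0.20 (SE 0.49, adjusted p = 0.885). The 3 probe sets shared by Acta2 and Actc1 were dim in both groups, with signals of 30.6 to 228 in tumours and 59.8 to 160 in normal glands. None of the 3 passed in limma, with log2 changes of 0.14 (adjusted p = 0.154), 0.07 (adjusted p = 0.497) and -0.36 (adjusted p = 0.119). A shared probe set cannot say which of these genes it reads.

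Promoter sequence is shown for Acta2 and Cnn1, whose signals had the highest correlation among the 6 genes in tumours. RefSeq windows of 250 bases before the annotated gene start matched 4 of the 6 genes (Oxtr, Acta2, Cnn1 and Mylk), without Myh11 and Tagln. The motif searched was the CArG box, which reads the same on both strands and is known as the binding sequence of serum response factor, a regulator of smooth muscle genes. A looser form that allows at most 1 G or C in its core was searched too. Capitals mark matches of the looser form, and the sequences run 5' to 3' on the gene's strand.
Acta2: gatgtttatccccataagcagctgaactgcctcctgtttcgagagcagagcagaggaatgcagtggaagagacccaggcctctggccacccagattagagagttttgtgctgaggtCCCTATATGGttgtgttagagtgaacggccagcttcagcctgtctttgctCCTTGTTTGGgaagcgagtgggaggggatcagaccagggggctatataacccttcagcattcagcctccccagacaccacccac
Cnn1: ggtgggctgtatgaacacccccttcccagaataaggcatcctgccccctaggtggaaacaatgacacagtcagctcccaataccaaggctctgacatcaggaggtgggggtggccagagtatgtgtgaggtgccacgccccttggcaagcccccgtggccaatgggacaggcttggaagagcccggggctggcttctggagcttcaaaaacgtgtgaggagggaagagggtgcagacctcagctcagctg
The Acta2 window is chr1:241172504-241172753 on the minus strand, and the Cnn1 window is chr8:28908187-28908436 on the plus strand, both in GRCr8. The Acta2 window held 0 strict CArG boxes and 2 of the looser form, which begin 134 and 84 bases before the gene start. The Cnn1 window held 0 of either. Of 33469 rat promoter windows of this length, 1.5% held a strict CArG box, 8.08% held at least 1 of the looser form and 0.693% held 2 or more. The windows for Oxtr and Mylk lie inside the annotated span of the gene, held 0 matches and are not printed. A match is a description of the letters, not evidence of binding.

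Mylk, the kinase that links calcium to myosin, fell and had few tumours inside the normal range. Tumours had a lowest signal of 192, a median of 843 and a highest of 2618, against 1022, 1761 and 2390 in normal glands. Of the tumours, 18 lay below every normal gland, 5 inside the normal range and 1, X17, above it. Mylk fell by 0.9998 on the log2 scale (SE 0.24, adjusted p = 0.000497 in limma). It lies on chromosome 11 at 79288243-79535450 (GRCr8).

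Tagln and Cnn1 encode actin-binding proteins that mark the contractile state of smooth muscle. For Tagln the tumours had a lowest signal of 140, a median of 537 and a highest of 1888, against 529, 1428 and 2072 in normal glands. In this gene 11 tumours lay below every normal gland, 13 were inside the normal range and 0 were above it. Tagln fell by 1.06 on the log2 scale (SE 0.29, adjusted p = 0.00246 in limma). For Cnn1 the tumours had a lowest signal of 77.2, a median of 282 and a highest of 1280, against 247, 486 and 812 in normal glands. Here 7 tumours lay below every normal gland, 15 were inside the normal range, and X14 (960) and X17 (1280) were above it. The log2 change of Cnn1 was -0.60 (SE 0.28) and did not pass (adjusted p = 0.0651 in limma), with 7 of 24 tumours below every gland. Leaving out a single array moved it past the threshold in 4 cases: without X17 (-0.69, adjusted p = 0.0204), X14 (-0.67, adjusted p = 0.0309), X28.1N (-0.69, adjusted p = 0.0386) or Young (-0.66, adjusted p = 0.0484). Tagln lies on chromosome 8 at 55121647-55127121 and Cnn1 on the same chromosome at 28908437-28917099 (GRCr8).

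The normal glands were not alike, and this touches every change above. In Myh11 the 8 NewN glands spanned 779 to 1847, against 445 to 567 in X27.1N, X28.1N and Young. In Acta2 they spanned 1956 to 3377, against 917 to 1362, and in Mylk 1341 to 2390, against 1022 to 1165. These 2 sets of glands did not overlap in those 3 genes. They did overlap in Oxtr (372 to 1426, against 249 to 672) and in Cnn1 (337 to 812, against 247 to 408). In Tagln they overlapped as well (964 to 2072, against 529 to 978). How many of all probe sets lack overlap between these 2 sets was not counted, and no label says how they differ. Against the NewN glands alone, Acta2 changed by -1.11 (SE 0.25, adjusted p = 0.000283), and Cnn1 by -0.82 (SE 0.32), which then passed (adjusted p = 0.0257, limma). With X27.1N and X28.1N as the only normal glands, 1 of the 6 genes was called, Oxtr, in a fit that called 1366 of all 15866 probe sets. Counted against the NewN glands alone, 24 tumours lay below every gland in Oxtr, 23 in Myh11, 21 in Acta2 and in Mylk, 18 in Tagln and 15 in Cnn1.

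The sizes of the 6 changes were compared over the 15 pairs of genes by permuting the array labels 100000 times, a comparison chosen after the values were seen. The change of Oxtr was lower than that of each of the other 5 genes, and so was that of Myh11 than that of each of the other 4. Oxtr fell by 1.29 more than Myh11 on the log2 scale (SE 0.32, adjusted permutation p = 0.00633), although Oxtr was bounded by the floor. Myh11 fell by 1.54 more than Tagln (SE 0.18, adjusted permutation p = 2.14e-05, with the raw p at 1e-05, the smallest that the permutations can give), and the change of Myh11 minus that of Acta2 was -1.84 (SE 0.21). Among the other 4 genes, Cnn1 differed from Tagln by 0.46 (SE 0.13, adjusted permutation p = 0.0103) and from Mylk by 0.40 (SE 0.14, adjusted permutation p = 0.0464). The pairs Acta2 and Cnn1 (-0.16, SE 0.12), Acta2 and Mylk (0.24, SE 0.13), Acta2 and Tagln (0.29, SE 0.12) and Mylk and Tagln (0.06, SE 0.15) did not pass, with adjusted permutation p-values of 0.277, 0.131, 0.0692 and 0.761.

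**Figure D2:**
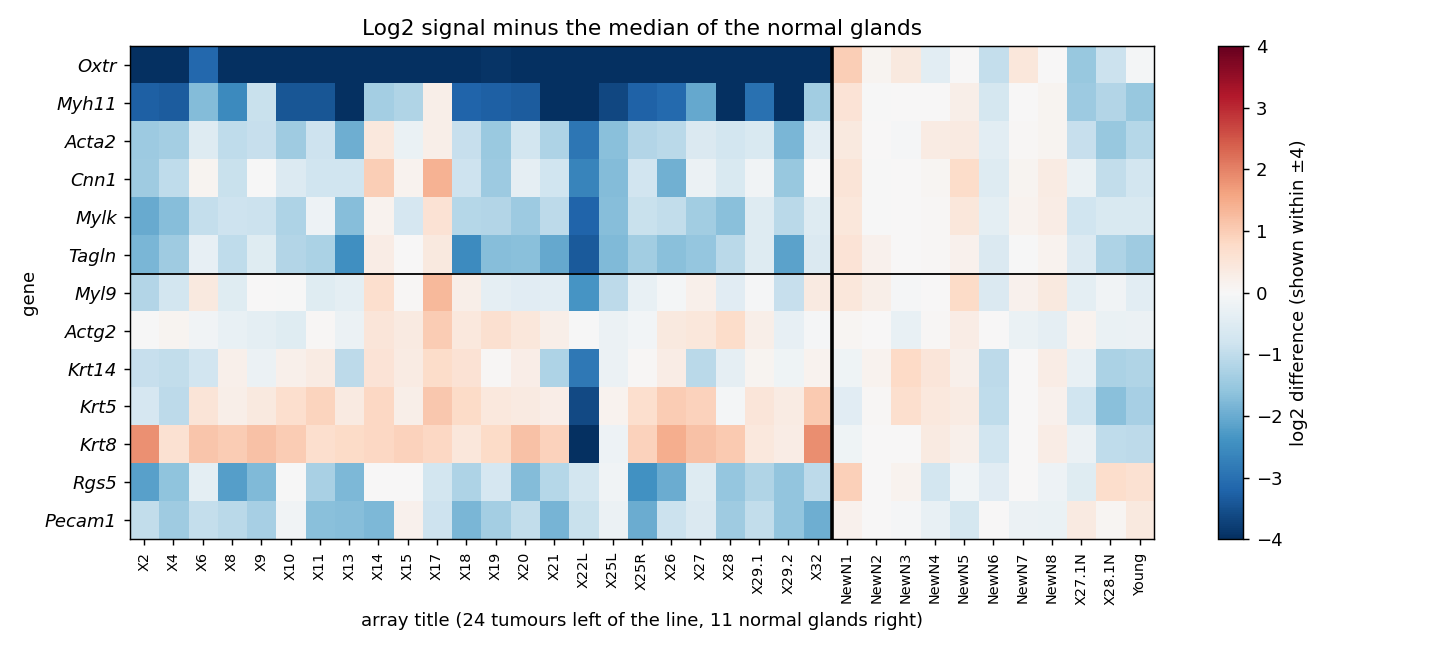
Log2 signal minus the median of the normal glands, shown within 4 on either side, for the 6 genes (above the line) and 7 other genes in each array, with tumours left and normal glands right. Oxtr is low in every tumour, Myh11 in nearly all, and X17 and X14 reach the normal level in Acta2, Cnn1, Mylk and Tagln.

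Seen tumour by tumour, low Oxtr went with very different levels of the other 5 genes. A gene was counted as kept in a tumour if its signal lay inside or above the normal range. By this count 3 tumours (X22L, X25L and X29.2) kept 0 of the 6 genes, 4 kept 1, 5 kept 2, 5 kept 3, 3 kept 4, 4 kept 5 and 0 kept all 6. The 4 tumours with 5 kept genes, X14, X15, X17 and X32, were below the normal range in Oxtr alone. In every gene the lower limit of that range came from X27.1N, X28.1N or Young. Set against the lowest NewN gland (779), Myh11 was below it in X14 (499), X15 (549) and X32 (487). Mylk was below the lowest NewN gland (1341) in X15 (1108) and X32 (1223). X32 was also just below the lowest NewN gland in Acta2 (1945 against 1956) and Tagln (953 against 964). X17 was below the NewN glands in Oxtr alone. In X17 the signals were 1511 for Myh11, 3063 for Acta2, 1280 for Cnn1, 2618 for Mylk and 1888 for Tagln, all at or above the normal median, while Oxtr was 25.9. In X14 they were 499 for Myh11, 3484 for Acta2, 960 for Cnn1, 1954 for Mylk and 1749 for Tagln, with Oxtr at the lowest value of 1. At the other end X22L had 47.1 for Myh11, 353 for Acta2, 77.2 for Cnn1, 192 for Mylk and 140 for Tagln, and its Krt14 (119.6) and Krt5 (141) were low as well. In 20 tumours no gene of the 6 reached the normal median.

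Across the 24 tumours the 5 genes other than Oxtr varied together. Oxtr was left out of these relations because it was at the floor in most tumours. All 10 relations passed in tumours, with Pearson r between 0.668 and 0.887 and a median of 0.807, tested by 100000 permutations and adjusted over 25 relations. The highest was between Acta2 and Cnn1 (r = 0.887, adjusted permutation p = 4.17e-05; rho = 0.85, adjusted permutation p = 6.25e-05), and r was 0.817 without X22L and X14, the tumours farthest from the median of Acta2. The lowest was between Myh11 and Mylk (r = 0.668, adjusted permutation p = 0.000542; rho = 0.663, adjusted permutation p = 0.000917), with r = 0.578 without X17 and X9. Over all 10, r without the 2 farthest tumours was between 0.564 and 0.817.

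In normal glands a pooled correlation would join the 2 sets described above, so relations were computed within the 8 NewN glands, a choice made after the values were seen. Of 15 relations, 12 passed for Pearson r and 5 for Spearman rho, in exact permutation tests adjusted over the 15. Cnn1 and Mylk were closest (r = 0.982, adjusted exact permutation p = 0.00112; rho = 0.976, adjusted exact permutation p = 0.00595), and r was 0.994 without the 2 farthest glands, NewN5 and NewN6. The relations of Oxtr rested on 2 glands: r with Myh11 was 0.842 (adjusted exact permutation p = 0.028; rho = 0.548, adjusted exact permutation p = 0.233), and was -0.132 without NewN1 and NewN6. For Oxtr and Tagln r was 0.818 (adjusted exact permutation p = 0.0329; rho = 0.381, adjusted exact permutation p = 0.386) and -0.404 without these 2 glands.

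**Figure D3:**
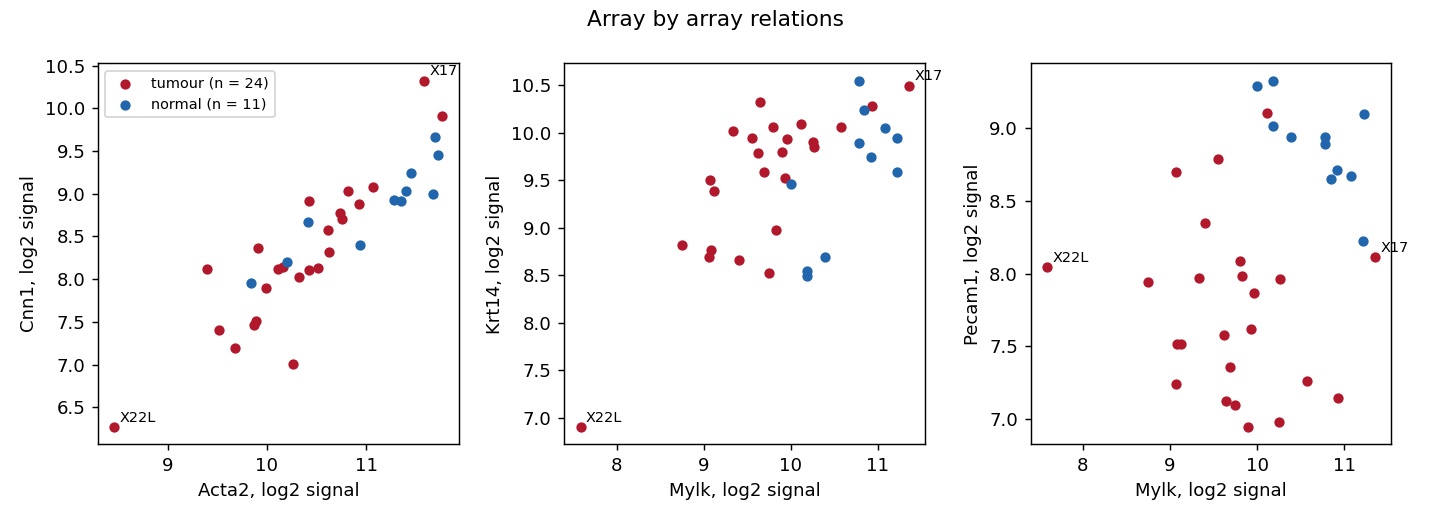
Log2 signal of 2 genes plotted against each other, 1 point an array, for Acta2 and Cnn1, Mylk and Krt14, and Mylk and Pecam1 in 24 tumours and 11 normal glands. Across tumours Acta2 and Cnn1 have r = 0.887 and Mylk and Krt14 have r = 0.79, while Mylk and Pecam1 have r = -0.158, and X22L lies at the low end of the first 2 panels.

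The contractile genes were next set against markers of the cells that could hold them, although bulk signal does not show which cells hold it. Krt14 and Krt5, keratins of basal and myoepithelial cells, did not pass in limma. Krt14 had a lowest, median and highest signal of 120, 886 and 1441 in tumours, against 361, 859 and 1494 in normal glands (log2 change -0.07, SE 0.27, adjusted p = 0.863). Krt5 had 141, 2240 and 3628 in tumours, against 532, 1707 and 2725 in normal glands (log2 change 0.59, SE 0.32, adjusted p = 0.11). For both, all tumours but 1 (X22L) were inside or above the normal range. The 2 sets of normal glands differed in these keratins as well. Medians in X27.1N, X28.1N and Young were 372 for Krt14 and 677 for Krt5, against 965 and 1847 in the NewN glands.

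**Figure D4:**
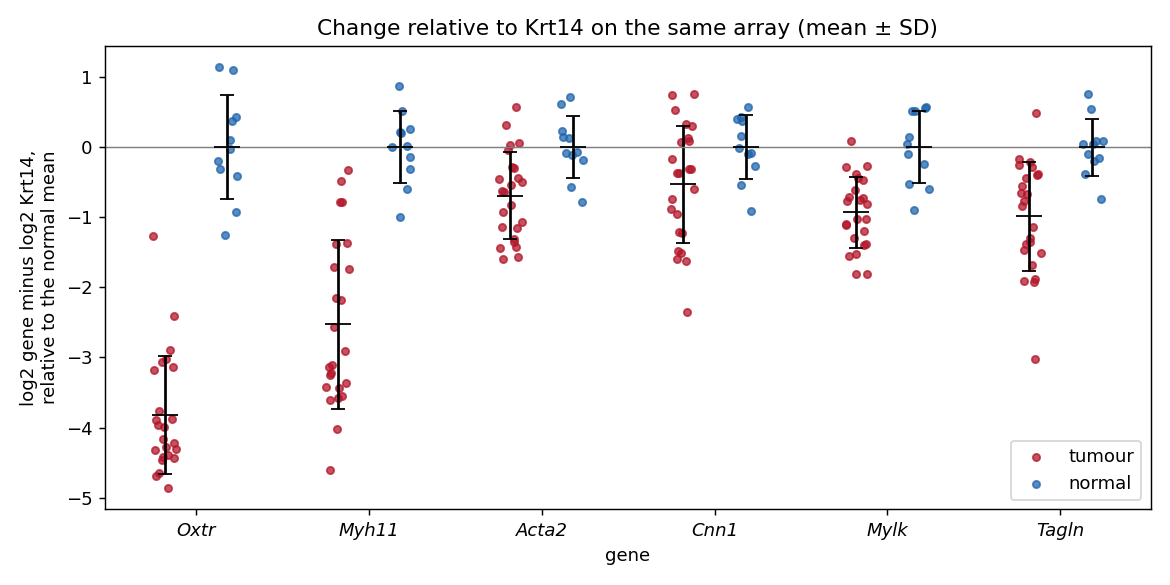
Log2 signal of each gene minus that of Krt14 on the same array, with the mean of the normal glands set to 0, for 24 tumours (left of each pair) and 11 normal glands. Bars are mean and SD. Oxtr and Myh11 lie far below 0 in tumours, at -3.82 and -2.53 on average, while Cnn1 overlaps.

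Relative to Krt14 on the same array, the log2 difference of Oxtr between tumours and normal glands was -3.82 (SE 0.28, adjusted permutation p = 3e-05, where a raw p of 1e-05 is the smallest possible), with 24 of 24 tumours below every normal gland. For Myh11 it was -2.53 (SE 0.29, adjusted permutation p = 3e-05), with 20 tumours below every gland. The differences were -0.99 for Tagln (SE 0.20, adjusted permutation p = 0.000555), -0.93 for Mylk (SE 0.19, adjusted permutation p = 8e-05) and -0.69 for Acta2 (SE 0.18, adjusted permutation p = 0.00283). For Cnn1 the difference of -0.53 (SE 0.22) did not pass (adjusted permutation p = 0.0572), with 8 of 24 tumours below every gland, but it did after quantile normalization (-0.63, adjusted permutation p = 0.0337) and without X22L (-0.56, adjusted permutation p = 0.0495). Against Myl9, a light chain of smooth muscle myosin that most stromal cells also make, the differences were -3.58 for Oxtr (SE 0.22), -2.29 for Myh11 (SE 0.24), -0.74 for Tagln (SE 0.18), -0.69 for Mylk (SE 0.11), -0.45 for Acta2 (SE 0.16) and -0.29 for Cnn1 (SE 0.13). All but Cnn1 (adjusted permutation p = 0.0592) passed in that comparison, and Cnn1 passed after quantile normalization (-0.41, adjusted permutation p = 0.0136) and with the NewN glands alone (-0.37, adjusted permutation p = 0.0281). Myl9 itself had a log2 change of -0.31 (SE 0.22, adjusted p = 0.233 in limma).

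Across tumours the 5 genes other than Oxtr were set beside 8 markers, giving 40 relations, of which 21 passed for Pearson r and 13 for Spearman rho after adjustment over the 40. Mylk followed the basal keratins: r with Krt14 was 0.79 (adjusted permutation p = 8e-05; rho = 0.67, adjusted permutation p = 0.0053) and was 0.601 without X22L and X17, and r with Krt5 was 0.782 (adjusted permutation p = 8e-05; rho = 0.626, adjusted permutation p = 0.00891), and 0.628 without them. Acta2 also passed for r and rho with Krt14 (r = 0.671, rho = 0.534, adjusted permutation p = 0.0027 and 0.0311). With Krt5 it passed for both too (r = 0.671, rho = 0.548, adjusted permutation p = 0.00293 and 0.0267). Without X22L and X14, r of Acta2 was 0.418 with Krt14 and 0.424 with Krt5. Myh11 passed for both with Krt14 (r = 0.486, rho = 0.494, adjusted permutation p = 0.0363 and 0.0462). Tagln with both keratins and Cnn1 with Krt5 passed for r alone, and Myh11 with Krt5 for rho alone. Without X22L and X17, r of Tagln fell from 0.594 to 0.327 with Krt14 and from 0.522 to 0.159 with Krt5. For Cnn1 with Krt5, r fell from 0.578 to 0.285 without the same tumours. Without X17 and X9, r of Myh11 was 0.452 with Krt14 and 0.418 with Krt5. Cnn1 followed Krt14 less firmly (r = 0.519, adjusted permutation p = 0.0263; rho = 0.375, adjusted permutation p = 0.144), with r = 0.16 without X22L and X17, so that relation rested on these tumours. The relation of Mylk with Krt8, a luminal keratin, also rested on them (r = 0.535, adjusted permutation p = 0.0493; rho = 0.1, adjusted permutation p = 0.736; r = -0.000356 without them). Krt8 also passed for Pearson r with Acta2 (r = 0.594, adjusted permutation p = 0.0153), Tagln (r = 0.5, adjusted permutation p = 0.0263) and Cnn1 (r = 0.487, adjusted permutation p = 0.0488), for Spearman rho with none of these, and r was 0.308, 0.224 and 0.205 in that order without the 2 farthest tumours. All 5 genes were related to Myl9, Acta2 with r = 0.865 (adjusted permutation p = 8e-05; rho = 0.75, adjusted permutation p = 0.00107) and Cnn1 with r = 0.864 (adjusted permutation p = 8e-05; rho = 0.782, adjusted permutation p = 0.0008). No relation with Pecam1, an endothelial marker, Rgs5, a pericyte marker, or Col1a1, a collagen, passed for any of the 5. Mcam, an adhesion molecule of pericytes and vessel walls, was related to Mylk (r = 0.561, adjusted permutation p = 0.0153; rho = 0.582, adjusted permutation p = 0.0176; r = 0.64 without X22L and X17) and to Acta2 (r = 0.554, adjusted permutation p = 0.0153; rho = 0.496, adjusted permutation p = 0.0462; r = 0.366 without X22L and X14). Its relation with Tagln passed for Pearson r (r = 0.457, adjusted permutation p = 0.0488; r = 0.443 without X22L and X17) but not for Spearman rho (rho = 0.351, adjusted permutation p = 0.169).

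Markers of other cell types were counted in the same way, and each count stands beside the 33% called higher and 25.2% called lower over all probe sets. Here and below, list genes were read by their brightest probe set, while these shares include dim probe sets. Among the brightest 50% of probe sets, 2077 of 7933 were called higher and 2673 lower. Of 13 measured pericyte and vascular smooth muscle markers, 0 rose, 10 fell and 3 did not pass (median -0.59), with summed signals of 1421 to 3593 in tumours and 2568 to 4974 in normal glands. None of them was under the floor in every tumour. Of 11 endothelial markers, 0 rose, 9 fell and 2 did not pass (median -0.92), with sums of 1439 to 4104 in tumours and 3584 to 6684 in normal glands. Rgs5 had a lowest, median and highest signal of 53.7, 125 and 295 in tumours, against 175, 290.5 and 558 in normal glands, and fell by 1.20 on the log2 scale (SE 0.24, adjusted p = 6.65e-05). Pecam1 fell by 1.13 (SE 0.18, adjusted p = 3.03e-06). The sums of the 17 basal markers overlapped, at 5645 to 15586 in tumours and 6884 to 14294 in normal glands, while those of the 10 adipocyte markers did not, at 427 to 6007 in tumours and 13143 to 37306 in normal glands. Of 16 luminal epithelial markers, 10 rose, 0 fell and 6 did not pass (median 0.87). Of 14 fibroblast markers, 1 rose, 11 fell and 2 did not pass (median -2.18), and their sum in X22L was 59282, against 25907 to 61131 in normal glands. Of 10 lymphocyte markers, 1 rose, 5 fell and 4 did not pass (median -0.96), while their sums had a lowest, median and highest value of 848, 1111 and 2000 in tumours, against 920, 1057 and 12508 in normal glands, so the medians lay close together. The part of these cell types in the changes of the 6 genes was not tested.

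Of 27 other smooth muscle contractile genes measured, 7 rose, 10 fell and 10 did not pass, beside 33% of all probe sets called higher and 25.2% called lower, with a median change of -0.13, and -0.02 after quantile normalization. Synpo2, which encodes an actin-bundling protein, had a lowest, median and highest signal of 28.6, 56.4 and 136 in tumours, against 146, 461 and 708 in normal glands. It fell by 2.76 (SE 0.18, adjusted p = 1.66e-15), with no overlap, though of its other probe sets 1 changed by -1.10 (SE 0.14) and 1 by 0.25 (SE 0.08), which was called in the opposite direction. Itga7, a laminin-binding integrin subunit of muscle, had signals of 56.1, 86.8 and 136 in tumours, against 195, 728 and 1008 in normal glands, and fell by 2.73 (SE 0.16, adjusted p = 1.58e-16), while 1 of its other probe sets did not pass (0.02, SE 0.04). Des, the intermediate filament protein desmin, fell by 1.14 (SE 0.16, adjusted p = 3.47e-07). Des is a gene of skeletal muscle as well, and of 18 skeletal muscle markers 13 fell, 0 rose and 5 did not pass. The skeletal actin Acta1 had a median of 4.497 in tumours and 845 in normal glands, where it ranged between 32.2 and 4427.

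Further genes of the list included relatives of Cnn1, Acta2 and Tagln. Cnn3, a calponin found in many cell types, had a lowest, median and highest signal of 1315, 2240 and 3379 in tumours, against 712, 1400 and 1918 in normal glands. Its signal was above every normal gland in 18 tumours, and it rose by 0.79 (SE 0.13, adjusted p = 3.56e-06), where Cnn1 had a change of -0.60 that did not pass. Dmd, the gene of dystrophin, was above every normal gland in 22 tumours and rose by 0.90 (SE 0.11, adjusted p = 6.84e-09). Actg2, the other smooth muscle actin, had 551, 814 and 1552 in tumours, against 599, 769 and 945 in normal glands, and its change of 0.21 (SE 0.12) did not pass (adjusted p = 0.136). Tpm4, a tropomyosin, had a change of 0.14 (SE 0.10) that did not pass (adjusted p = 0.228). Tagln2, a relative of Tagln, fell by 0.45 (SE 0.12, adjusted p = 0.00123). Lmod1, an actin-filament nucleator of smooth muscle, fell by 0.996 (SE 0.15, adjusted p = 7.38e-07), with 20 tumours under the floor. Tagln2, Lmod1 and Dmd were chosen as examples after their values were seen.

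**Figure D5:**
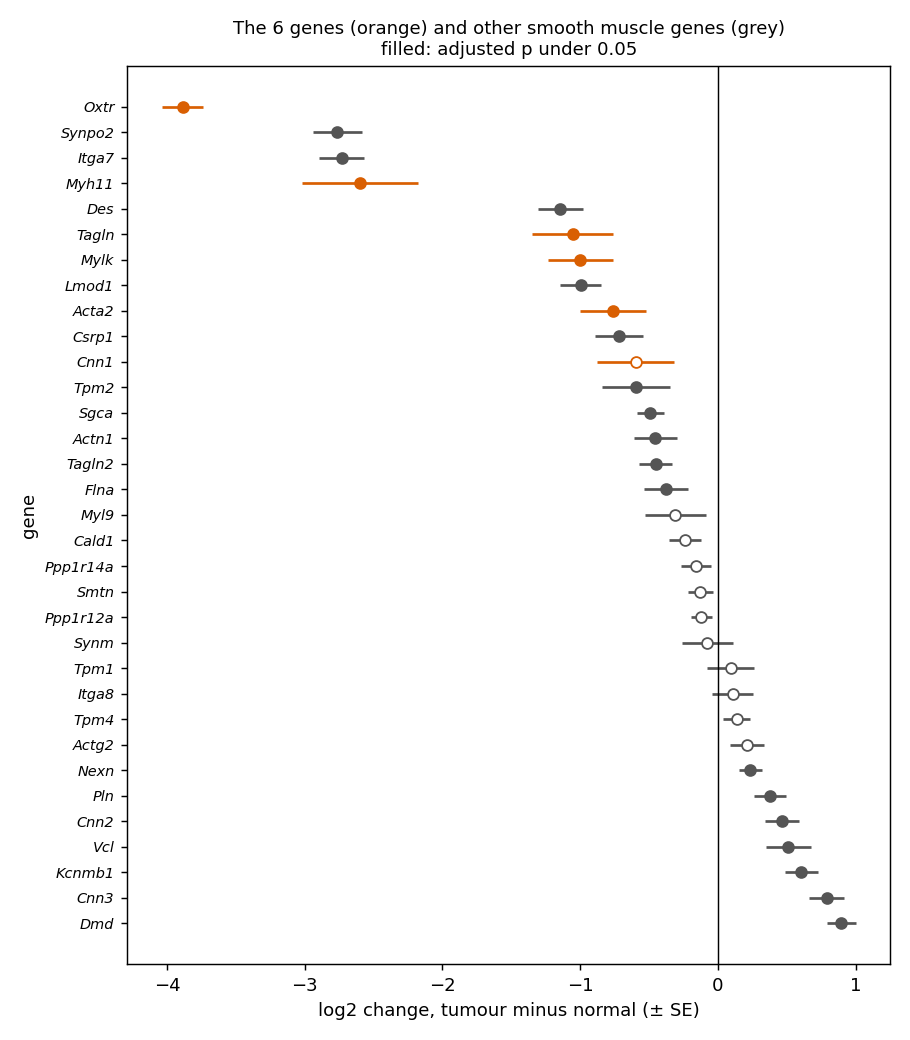
Log2 change, tumour minus normal, with its standard error, of the 6 genes (orange) and 27 other smooth muscle genes (grey), where filled circles passed at an adjusted p under 0.05 in limma. Oxtr, at -3.89, has the lowest change, Synpo2, Itga7 and Myh11 follow, and Cnn3 and Dmd are at the high end.

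Of 26 measured genes of oxytocin signalling below and around the receptor, 9 rose, 7 fell and 10 did not pass, shares close to the 33% called higher and 25.2% called lower over all probe sets, with a median change of 0.12 and 0.10 after quantile normalization. Gnaq, the Gq subunit that couples to the receptor, had a lowest, median and highest signal of 64.2, 89.1 and 149 in tumours, against 60.6, 94.2 and 111 in normal glands, and its change of 0.06 (SE 0.11) did not pass (adjusted p = 0.685). Phospholipase C beta genes, which act next, had changes of -0.75 for Plcb1 (SE 0.15, adjusted p = 6.28e-05) and -0.94 for Plcb4 (SE 0.25, adjusted p = 0.00142), although a dimmer probe set of Plcb4 rose by 0.42 (SE 0.10, adjusted p = 0.000494). Prkca, a protein kinase C, had signals of 121, 184 and 347 in tumours, against 62, 95.5 and 201 in normal glands, and rose by 0.90 (SE 0.16, adjusted p = 1.53e-05). Calm2, one of the genes of calmodulin, rose by 0.24 (SE 0.06, adjusted p = 0.000734) and Rhoa, a small GTPase that promotes contraction, fell by 0.28 (SE 0.08, adjusted p = 0.00358). Oxt, the gene of oxytocin itself, had 238, 363 and 560 in tumours, against 152, 238 and 326 in normal glands, and rose by 0.63 (SE 0.12, adjusted p = 3.59e-05). Oxt and Gnaq were chosen as examples after their values were seen.

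Of 14 measured genes of the serum response factor and myocardin list, which holds regulators of smooth muscle, 4 rose, 6 fell and 4 failed the test, beside 33% higher and 25.2% lower over all probe sets (median 0.07, and 0.24 after quantile normalization). Srf rose by 0.17 (SE 0.06, adjusted p = 0.0166), with signals of 400, 541 and 659 in tumours, against 418, 475 and 565 in normal glands. Mrtfa, a coactivator of Srf, did not pass (0.08, SE 0.07, adjusted p = 0.307). Fhl1, a LIM-domain protein of muscle, fell by 2.95 (SE 0.17, adjusted p = 1.29e-16), with 24 of 24 tumours below every gland. Mef2c, a factor of muscle and vessel cells, fell by 2.06 (SE 0.20, adjusted p = 9.15e-11) and Klf4 had a change of -2.09 (SE 0.25, adjusted p = 1.17e-08). Of 17 basal and myoepithelial markers, 6 rose, 3 fell and 8 did not pass (median 0.47), shares near the 33% and 25.2% over all probe sets. Cav1, a component of caveolae that adipocytes and endothelial cells also make, had a change of -2.59 (SE 0.28, adjusted p = 9.75e-10) and Mme, a membrane peptidase, of -2.02 (SE 0.25, adjusted p = 3.5e-08). Id4, a regulator of basal cells in mouse, rose by 1.16 (SE 0.20, adjusted p = 1.12e-05), and Itgb1 fell by 0.35 (SE 0.14, adjusted p = 0.0296 in limma).

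The genes whose signals were most like those of each member were ranked by Pearson r of log2 signals over 24 tumours, with 9812 candidate genes. For Myh11 they were Tpm2 (r = 0.793), Myl9 (0.743) and Stim1 (0.741). For Acta2 they were Myl9 (0.865), Ccdc107 (0.798) and Pdgfa (0.779), and for Cnn1 they were Myl9 (0.864), Stim1 (0.767) and Uqcrh (0.707). For Mylk they were Nt5e (0.885), Kitlg (0.881) and Pdgfa (0.874), and for Tagln they were Tpm1 (0.788), Ccdc107 (0.786) and Fmod (0.773). Tpm1 and Tpm2 encode tropomyosins, which lie along actin filaments, and Stim1 is a calcium sensor of the endoplasmic reticulum. Of these genes, Pdgfa rose by 0.76 (SE 0.17, adjusted p = 0.00027 in limma), Nt5e fell by 1.01 (SE 0.19, adjusted p = 3.77e-05), and Myl9, Kitlg and Fmod did not pass. The ranking was not repeated without the farthest tumours. With Myl9, r was 0.771 for Acta2 without X22L and X14, and 0.753 for Cnn1 without X17 and X22L. Tpm1 is read by 6 probe sets, with log2 changes between -2.18 and 0.59, and the ranking used 1 of them. Oxtr, at the floor in most tumours, was ranked over the 11 normal glands and 9627 candidates, where Oaz2 (0.969), Sipa1l2 (0.965) and Map3k20 (0.962) were closest, a ranking that mixes the 2 sets of glands.

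Tumours X27 and X28 each share a title number with a normal gland. In these 2 pairs Oxtr, Myh11 and Mylk were lower in the tumour, Acta2 and Cnn1 were not, and Tagln differed between the pairs. X27 had an Oxtr signal of 1, against 249 in X27.1N, and X28 had 1, against 394 in X28.1N. Acta2 was 1728 in X27, against 1362 in X27.1N, and 1577 in X28, against 917 in X28.1N. Cnn1 was 416 in X27, against 408 in X27.1N, and 318 in X28, against 247 in X28.1N. Mylk was 676 in X27, against 1022 in X27.1N, and 558 in X28, against 1165 in X28.1N. Myh11 was 307 in X27, against 463 in X27.1N, and 54.5 in X28, against 567 in X28.1N. Tagln was 486 in X27, against 978 in X27.1N, and 679 in X28, against 608 in X28.1N. The labels do not say that a shared number marks an animal. With these 4 arrays and the title number as a replicate block, the log2 change was -2.91 for Oxtr (SE 0.25) and 0.56 for Acta2 (SE 0.19), and the adjusted p was 0.287 for Oxtr in limma. That fit called 0 of 15866 probe sets, with 2736 at an unadjusted p under 0.05, so it says nothing particular about the 6 genes.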

How the data were processed

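Arrays of the RAE230A design were analysed from the deposited table, which gives 1 linear intensity per probe set and array. How the authors scaled and background-corrected these values, and with what software, is not given in the sources used here. Of the values, 0.648% took the lowest one, 1. The deposited scaling was kept, 57 control probe sets were left out, signals under the floor of 41.6 were set to it, and log2 was taken. Symbols came from the platform annotation: 12783 probe sets carry 1 symbol, 312 several and 2771 none. For list genes read by several probe sets, the one with the highest mean was used. The highest correlation between arrays was 0.987, so none was a copy of another.

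Tumours and normal glands were compared over all 35 arrays with R 4.3.3 and its package limma 3.58.1 (eBayes after lmFit, trend and robust set), with Benjamini-Hochberg adjustment over all 15866 probe sets and a threshold of 0.05. Differences within arrays and correlations were tested two-sided by permutation (100000 resamples, exact for 8 glands) in Python 3.11.15. The fits and tests were checked on simulated data. Genes named were the 6 members, a panel of markers, the 3 genes most like each member and some list genes, with any other named as an example. From the smooth muscle, oxytocin, serum response factor and basal lists, these were the 3 genes that changed most and the 2 of highest level. The other lists are given as counts or sums, with genes of the panel. The members and lists were chosen with earlier results of these data known. Promoters and positions are from RefSeq (GRCr8). Alternatives covered scaling, floor, dim probe sets, spread model, array weights, the normal glands used, blocks by title number and single arrays left out, the last of these chosen after the data were seen. Between arrays sharing a title number, deviations from the group means correlated at 0.186 and 0.251, and across numbers at 0.109 and 0.236, over 2 pairs.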

Additional observations from a re-analysis of the deposited data

How the results depend on the processing

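Over the limma settings in which it was tested, Oxtr was called lower in all but the fit of 4 arrays described next. The title number as a replicate block, in 4 arrays (tumours X27 and X28, glands X27.1N and X28.1N) with 1 residual degree of freedom a probe set, called 0 probe sets in all, 0 higher, 0 lower and 0 of the 6 genes, with 2736 at an unadjusted p under 0.05. Log2 changes there were -2.91 for Oxtr, -1.99 for Myh11, 0.56 for Acta2, 0.20 for Cnn1, -0.83 for Mylk and -0.43 for Tagln. With X27.1N and X28.1N as the only normal glands, 1366 probe sets were called, 439 higher and 927 lower, and 1 of the 6 genes, with -1.64 for Myh11, 0.20 for Acta2, -0.40 for Mylk and -0.42 for Tagln. The brightest 50% of probe sets, 7933 in number, gave 4750 calls, 2077 higher and 2673 lower. The median change there was -0.04, against 0.04 over all probe sets, and Oxtr was not among the probe sets tested. Quantile normalization gave -0.50 for Acta2, which then did not pass. Cnn1 passed with array weights (-0.73), against the NewN glands (-0.82) and without Young (-0.66). The share of calls that were higher was 56.7%, against 43.7% in the brightest 50% and 32.1% with X27.1N and X28.1N alone. Apart from these, the changes of the 6 genes kept their direction and their side of the threshold, and the cause of the exceptions was not tested.

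With each array left out in turn, between 8689 (without NewN1) and 9508 (without X22L) probe sets were called, 4861 to 5396 higher and 3828 to 4112 lower, and 5 to 6 of the 6 genes, the sixth being Cnn1 without X28.1N, Young, X14 or X17. The log2 change ranged over -4.02 to -3.77 for Oxtr, -2.74 to -2.51 for Myh11, -0.89 to -0.68 for Acta2, -0.69 to -0.51 for Cnn1, -1.07 to -0.91 for Mylk and -1.17 to -0.97 for Tagln. Signal over background limits Oxtr, which was under the floor in 22 tumours.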
